A study of Mus musculus with 14 samples.

Results

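Gm10801, Gm10800, Gm10717, Gm10715, Gm10720 and Gm11168 are 6 predicted protein-coding gene models of the mouse genome, among 48794 genes in the count and TPM tables. They were chosen by symbol, with their levels in these libraries known, because their counts were high in the libraries made from the fewest sorted cells, so their levels by cell number are a description and carry no test. The libraries were made from CD45+ leukocytes sorted from liver needle biopsies of untreated wild-type (WT) mice at 2500, 5000, 10000 or 20000 cells, with 3 libraries for each number, and from bulk liver of untreated WT mice, with 2 libraries. No group carries an allele or agent that another lacks, and the sources used here do not give ages. CD45 is the surface phosphatase carried by nearly all white blood cells, and it is encoded by Ptprc. Nothing in the labels ties each library to its own mouse, and the p-values therefore measure only the spread between libraries, which may be technical.

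Models of this kind have been linked to major satellite repeat, the AT-rich tandem repeat that surrounds mouse centromeres. In most cells this DNA is packed as constitutive heterochromatin, with methylated DNA, histone H3 methylated by the Suv39h enzymes and HP1 proteins bound to that mark, and little RNA is made from it. The annotation gives none of the 6 models a function beyond its class as protein coding, and no satellite consensus was compared here. Whether each model belongs to such a repeat was therefore not tested. Gm10801 and Gm10800 lie on chromosome 2, apart from the 4 members at one end of chromosome 9.

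On GRCm38, the GENCODE M21 annotation places Gm10801 (ENSMUSG00000075015) at chr2:98662237-98664083 on the plus strand and Gm10800 (ENSMUSG00000075014) at chr2:98666547-98667301 on the minus strand. The other 4 members lie on the plus strand at one end of chromosome 9. In order along it they are Gm11168 (ENSMUSG00000096385) at chr9:3003346-3006948, Gm10720 (ENSMUSG00000074564) at chr9:3015654-3017210, Gm10717 (ENSMUSG00000095891) at chr9:3025417-3033289 and Gm10715 (ENSMUSG00000096201) at chr9:3036877-3038316. Their transcript models are 504 to 684 bases long, are annotated as coding exons throughout and have 0 annotated UTRs. Each member's longest match to another member's transcript had a gapped alignment length of 525 to 689 columns, gaps included, at 87.6 to 95.1% identity.

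The sequences below show the feature the 6 members have in common. A word of 38 bases is the longest that occurs in a transcript of every member, and on either strand it was found in 10 of 55450 annotated genes (0.018%), the 6 members and 4 models related to them. For 4 members a stretch as long as the transcript's best self-match distance is printed, from that word onward, with the word in capitals. It runs 5′ to 3′ on the transcript's strand, which holds 1 copy of the word. The stretches come from spliced GENCODE M21 transcripts of 3 to 5 exons. They may join exons, and their length on the genome was not measured.
Gm10800: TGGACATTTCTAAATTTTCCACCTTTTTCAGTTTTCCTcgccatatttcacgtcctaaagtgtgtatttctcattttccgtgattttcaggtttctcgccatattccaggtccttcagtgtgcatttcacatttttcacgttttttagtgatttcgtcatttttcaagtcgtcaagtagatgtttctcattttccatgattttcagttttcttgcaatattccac
Gm10801: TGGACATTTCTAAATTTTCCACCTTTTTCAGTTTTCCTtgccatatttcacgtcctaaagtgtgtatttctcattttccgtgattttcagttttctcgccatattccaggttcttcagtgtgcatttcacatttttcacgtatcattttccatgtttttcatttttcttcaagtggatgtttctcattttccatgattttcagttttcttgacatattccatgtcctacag
Gm10717: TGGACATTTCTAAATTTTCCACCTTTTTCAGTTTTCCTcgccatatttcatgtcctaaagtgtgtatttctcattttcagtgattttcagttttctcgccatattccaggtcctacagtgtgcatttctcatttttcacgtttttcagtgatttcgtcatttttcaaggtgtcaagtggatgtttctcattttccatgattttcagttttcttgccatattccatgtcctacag
Gm10720: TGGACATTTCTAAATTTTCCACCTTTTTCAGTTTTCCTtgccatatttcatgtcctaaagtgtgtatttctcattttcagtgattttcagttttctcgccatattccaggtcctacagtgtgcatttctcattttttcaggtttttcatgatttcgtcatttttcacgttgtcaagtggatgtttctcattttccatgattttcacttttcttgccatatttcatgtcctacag
The stretches of Gm10800, Gm10801, Gm10717 and Gm10720 are 225, 231, 234 and 234 bases long, the distance within the range searched at which each spliced transcript best matched itself.

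When each member's transcript was compared with itself at every distance from 20 to 299 bases, 52.7% of bases were identical in Gm10801, at 231 bases, and 56.3% in Gm10800, at 225 bases. The 4 chromosome 9 members had their best match at 234 or 237 bases, with 62.9 to 66.4% identical bases. The median over these distances was 30.7 to 31.7%. A shorter period was also present, since 47.3% of bases in Gm10801 and 58.1% in Gm10717 were identical at 58 bases. The transcripts held 64.1 to 65.7% A and T, against a median of 50.8% over 141767 annotated transcripts.

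**Figure D1:**
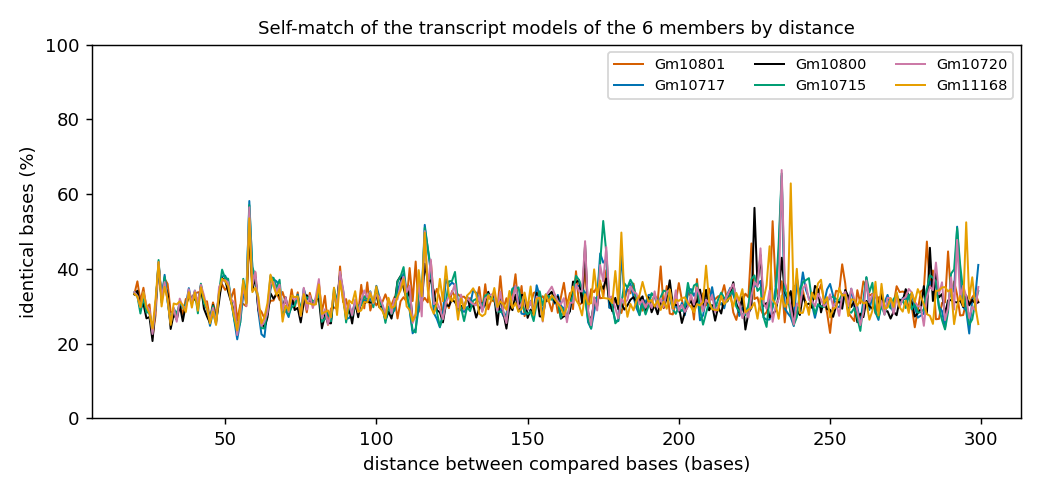
Percent of identical bases (y axis) when the transcript of each of the 6 members is compared with itself at a given distance in bases (x axis), 1 line per member. Each line is highest between 225 and 237 bases, and all 6 have a lower peak at 58 bases.

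The members differed in how much of their sequence is their own. Of the words of 50 bases in its transcripts, 82.9% of Gm10801 and 72.6% of Gm10800 occurred in no other annotated gene. For the chromosome 9 members the share was 53.6% for Gm10717, 46.4% for Gm11168, 36% for Gm10715 and 11.7% for Gm10720. Besides the members, 7 annotated genes matched a member over at least 100 bases at 80% identity or more, and the same number did so over 200 bases at 90%. They are Gm10722, Gm10721, Gm10719, Gm10718 and Gm17535, which lie beside or between the members on chromosome 9, Gm21738 on chromosome 14, and Gm26870. Gm26870 is a lincRNA model at chr9:3000282-3038313 on the minus strand and spans the chromosome 9 members on the opposite strand. Reads of one copy can be given to another, the sources used here do not give the strand setting behind the counts, and the split of reads between the 13 models is therefore uncertain.

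The libraries held 6723357 to 14496314 counts. Ptprc averaged 2531 ± 86.6 CPM (counts scaled to 1000000 per library; SD, n = 12) in the 12 sorted libraries and 10.4 ± 2.58 in bulk liver (SD, n = 2), while Alb, the hepatocyte albumin gene, averaged 48.7 ± 8.54 CPM (SD, n = 12) and 20982 ± 388 CPM, so the defining marker of each labelled source was present at a high level in it. Replicate 1 of 2500 cells stood apart from its 2 partners in the members' levels, and the ratios, the slope and the share at 2500 cells are given with and without it.

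Gm10800 held most of the members' counts. At 2500 cells its 3 libraries had 120, 30.3 and 32.9 CPM, from 1107, 306 and 283 counts. At 5000 cells they had 12.3, 22 and 7.7 CPM, at 10000 cells 7.8, 14.1 and 4.72, and at 20000 cells 4.91, 3.77 and 9.83. All 3 libraries of 2500 cells lay above all 9 other sorted libraries, while the ranges of 5000, 10000 and 20000 cells overlapped. As background, 0.818% of 14795 tested genes had every 2500-cell library above every other sorted library. The group means were 61 ± 51, 14 ± 7.3, 8.89 ± 4.8 and 6.17 ± 3.22 CPM (SD, n = 3 each). The mean at 2500 cells was 9.89 times that at 20000 cells, or 5.12 times without replicate 1 of 2500 cells.

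Gm10801 lies a few kilobases from Gm10800 on the opposite strand. It had 23.4, 6.54 and 8.02 CPM at 2500 cells, 2.35, 4.97 and 2.21 at 5000 cells, 1.58, 2.95 and 1.44 at 10000 cells, and 1.64, 1.4 and 1.94 at 20000 cells. Again the 2500-cell libraries were the highest of the sorted ones, and the other 3 inputs overlapped with their neighbours. Its mean was 12.7 ± 9.33 CPM at 2500 cells and 1.66 ± 0.27 CPM at 20000 cells (SD, n = 3 each), a ratio of 7.63, or 4.39 without replicate 1 of 2500 cells. Gm10800 had 2.69 to 5.25 times the counts of Gm10801 in the 12 sorted libraries, with a median of 4.54, and 3 and 4.5 times in the bulk libraries.

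Gm10717 had the most counts of the chromosome 9 members, 134 over all libraries. It had 5.74, 1.39 and 1.86 CPM at 2500 cells, 0.587, 1.1 and 0.77 at 5000 cells, 0.211, 0.712 and 0.411 at 10000 cells, and 0, 0.324 and 0.517 at 20000 cells. The 2500-cell libraries were again above all other sorted libraries, and the neighbouring inputs below them overlapped. The mean at 2500 cells, 3 ± 2.39 CPM, was 10.7 times the 0.28 ± 0.261 CPM at 20000 cells, and 5.79 times without replicate 1 of 2500 cells. This value at 20000 cells rests on 7 counts in all.

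**Figure D2:**
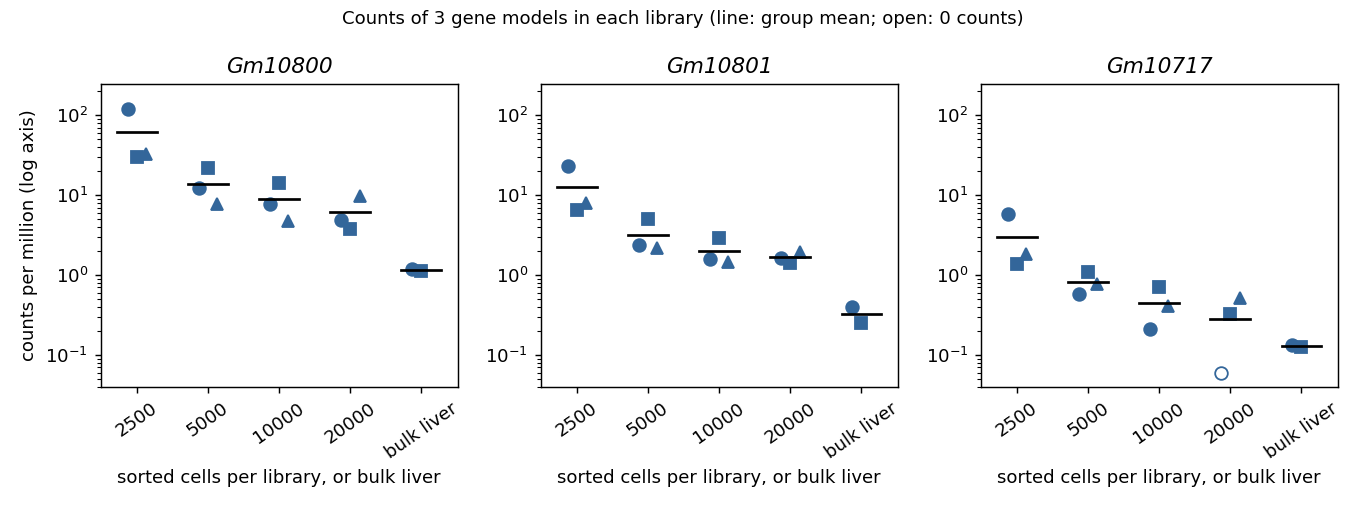
CPM (y axis, log scale) of Gm10800, Gm10801 and Gm10717 in each library by number of sorted cells and in bulk liver (x axis), with circles, squares and triangles for replicates 1, 2 and 3 and a line at the group mean. An open circle marks the 20000-cell library with 0 counts of Gm10717, drawn at an arbitrary low height. The 2500-cell libraries are above all other sorted libraries in each panel, and replicate 1 is the highest of them.

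The other 3 members were near the limit of counting. Gm10715 had 15 counts in 4 sorted libraries, of which 8 were in replicate 1 of 2500 cells. Gm11168 had 10 counts spread over 7 sorted libraries, with no more than 3 in any of them. Gm10720 had 2 counts, 1 in replicate 1 of 2500 cells and 1 in replicate 3 of 20000 cells. A limit of 3 counts over a group corresponds to 0.107 CPM at 2500 cells and 0.126 CPM at 20000 cells. Group levels under these values rest on fewer than 3 counts and are uncertain at this depth.

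Together the 6 members held 0.00771% of all counts at 2500 cells (0.00406% without replicate 1), 0.00182% at 5000, 0.00115% at 10000, 0.00082% at 20000 and 0.00016% in bulk liver. Summed, they had 150, 38.3 and 42.9 CPM in the 2500-cell libraries, and the group means were 77.1 ± 63.4, 18.2 ± 9.23, 11.5 ± 5.96 and 8.2 ± 3.8 CPM from 2500 to 20000 cells (SD, n = 3 each). The slope over the 12 sorted libraries was -0.97 on the log2 scale for each doubling of the cell number, and -0.75 without replicate 1 of 2500 cells. Within 5000 and within 10000 cells, replicate 2 was the highest for Gm10800, Gm10801 and Gm10717, and within 20000 cells replicate 3 was. The library with the highest level was thus shared by the 3 models within each input.

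In the edgeR fit of the 12 sorted libraries, 3 of the 6 members passed the filter on low counts. The log2 differences of 2500 against 20000 cells were 3.32 (SE 0.77) for Gm10800, 2.93 (SE 0.50) for Gm10801 and 3.30 (SE 0.74) for Gm10717. At 5000 against 20000 cells they were 1.22 (SE 0.79), 0.98 (SE 0.53) and 1.49 (SE 0.82), and at 10000 against 20000 cells 0.52 (SE 0.83), 0.25 (SE 0.57) and 0.57 (SE 0.91). These comparisons share the 20000-cell libraries. As background, 0.0811% of 14795 tested genes passed as higher at 2500 than at 20000 cells at an adjusted p under 0.05. Every 2500-cell library was above every 20000-cell library in 8.57% of these genes. Since the members were chosen for this contrast, nothing is read from these shares.

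Per length, the order of the members was the same as in counts at its top. TPM (transcript abundance scaled by length and to 1000000 per library) averaged 49.2 for Gm10800 over the 12 sorted libraries, 11 for Gm10801, 3.37 for Gm10717, 0.932 for Gm11168, 0.501 for Gm10720 and 0.295 for Gm10715. Gm10800 had 255.9, 71.31 and 60.7 TPM at 2500 cells and 10.43, 10.14 and 18.37 TPM at 20000 cells. Gm10801 had 60.85, 12.34 and 18.6 TPM at 2500 cells and 2.71, 1.82 and 2.94 TPM at 20000 cells. The 2 sets of libraries did not overlap for either model. Against 5000 cells, however, TPM overlapped for Gm10801, with 13.18 TPM in replicate 2 of 5000 cells against 12.34 in replicate 2 of 2500 cells. It also overlapped for Gm10717, with 3.11 against 2.97 TPM in the same libraries. Gm11168, Gm10720 and Gm10715 each ranged from 0 to at most 4.19 TPM in the sorted libraries, so the order among these 3 is within their spread.

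The place of the 7 related models differed between the 2 tables. They held 42.1 to 54.6% of the TPM of all 13 models in a sorted library, but 1 to 92 counts there, against 44 to 1387 for the members. Gm26870, the model on the opposite strand, had the second highest mean TPM of the 13 models, 22.4, with 55 counts in the sorted libraries. It had 114.7, 30.47 and 28.91 TPM at 2500 cells and 5.83, 4.33 and 10.9 at 20000 cells, so its 2500-cell libraries were also above those of 20000 cells. Gm10721 averaged 14.4 TPM and reached 77.63 TPM in replicate 1 of 2500 cells, with 2 counts over all libraries. Among the 9072 genes with a mean of at least 10 TPM in the sorted libraries, 144 (1.59%) had no more than 2 counts in them.

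Of the other related models, Gm21738 had 76 counts, Gm10722 had 32, Gm10718 had 14, Gm10719 had 12 and Gm17535 had 11 over all libraries. Gm21738, whose copy on chromosome 14 has 68% of its 50-base words to itself, had 36, 6 and 9 counts at 2500 cells and 0, 0 and 1 at 20000 cells. Gm10718 and Gm10719 averaged 8.58 and 4.27 TPM on few counts, while Gm10722 and Gm17535 averaged 0.286 and 0.268 TPM. The share of words in no other gene was 9.95% in Gm17535, 15.7% in Gm10721 and 25.1% in Gm10718. Besides related models, 4 genes lie within 100 kb of a member, and of these 4930433N12Rik had 1 count and the other 3 had 0.

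**Figure D3:**
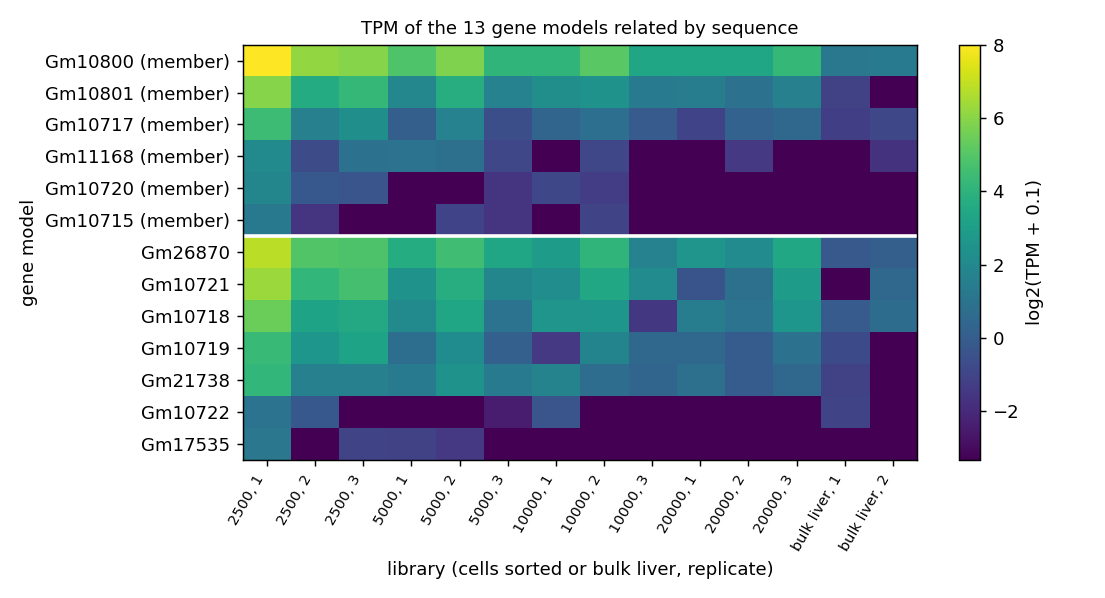
TPM of the 13 gene models related by sequence (rows; members above the white line) in each library (columns), as log2(TPM + 0.1) on the colour scale. Replicate 1 of 2500 cells is the brightest column in most rows, and the bulk liver columns are among the darkest.

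**Figure D4:**
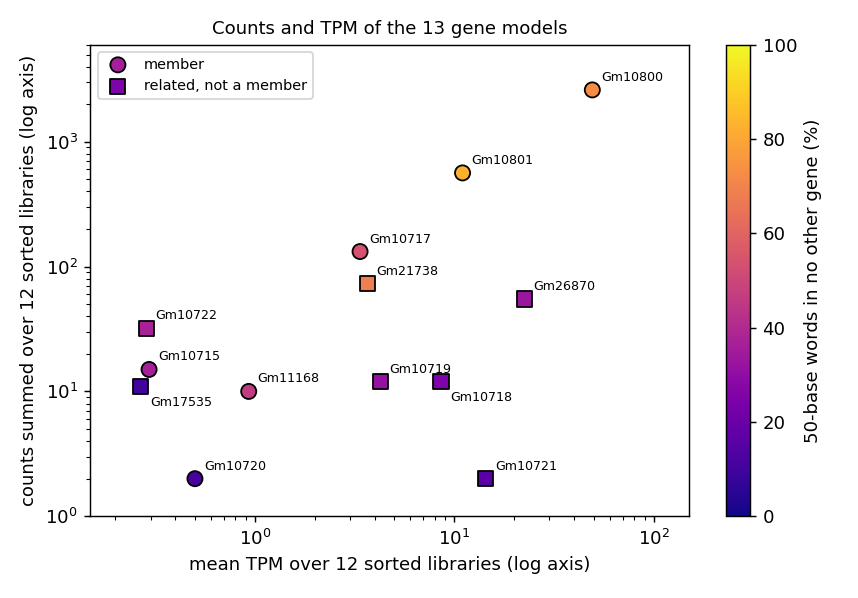
Counts summed over the 12 sorted libraries (y axis, log scale) against mean TPM over the same libraries (x axis, log scale), 1 point per model, with members as circles and related models as squares. Colour gives the percent of 50-base words found in no other gene. Gm10721 and Gm26870 have high TPM with 2 and 55 counts, while Gm10800 is highest on both axes.

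Bulk liver was the comparison least touched by the choice of members, and it was tested at 20000 cells. Gm10800 had 1.18 and 1.12 CPM in the bulk libraries, Gm10801 had 0.394 and 0.249, and Gm10717 had 0.131 and 0.124, from 9, 9, 3, 2, 1 and 1 counts. All 20000-cell libraries were above both bulk libraries for Gm10800 and Gm10801, as were 68.6% of 16294 tested genes, while for Gm10717 the groups overlapped. By library totals the mean at 20000 cells was 5.36 times the bulk mean for Gm10800, 5.16 times for Gm10801 and 2.19 times for Gm10717. In bulk samples, fewer cells of a type and less RNA per cell cannot be told apart.

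After scaling with TMM factors (trimmed mean of M values), the edgeR quasi-likelihood test gave log2 differences of 1.22 (SE 1.3, adjusted p = 0.41) for Gm10800, 1.16 (SE 0.97, adjusted p = 0.28) for Gm10801 and 0.00 (adjusted p = 1) for Gm10717. No usable SE was available for Gm10717. By edgeR 0 of 3 tested members passed, and 0 had an unadjusted p under 0.05, against 77.8% of all genes tested that passed. This fit took each gene's spread from all 14 libraries. These include the 2500-cell libraries for which the members were chosen, so the members' p-values in it are not free of that choice. Gm10717 passed the filter on low counts in the fit of all 14 libraries but not with the 20000-cell and bulk libraries alone. There 1 of 2 tested members passed, Gm10800 at 1.21 (edgeR adjusted p = 0.026), against 12760 of 15233 genes. Without replicate 1 of 2500 cells, Gm10800 was at 1.22 (edgeR adjusted p = 0.18) and Gm10801 at 1.16 (edgeR adjusted p = 0.14). DESeq2 and limma-voom also called 0 of 3, against 12314 and 12066 of 16294 genes. The limma test on log2(TPM + 0.1) called 2 of 4 tested members, against 13689 of 16549 genes. The 2 were Gm10800 at 2.37 (limma adjusted p = 0.0082) and Gm10801 at 3.58 (limma adjusted p = 0.001). The median of all genes in that test was 1.80. The scaling also matters here. The median of all genes was 0.19 with TMM and 1.38 with library totals. With TMM 52.7% of calls were higher at 20000 cells, and with library totals 75.3%. With library totals 13968 of 16294 genes passed. There Gm10801 passed at 2.32 (edgeR adjusted p = 0.024) and Gm10800 did not at 2.40 (edgeR adjusted p = 0.095). The members' differences exceeded the median of all genes by about 1 log2 unit in both scalings for Gm10800 and Gm10801, and Gm10717 lay below it. A change of scaling moves all genes by nearly the same amount, so the likeness of the 2 scalings is no support. The excess was about the size of the SEs with TMM, 1.3 and 0.97, or smaller.

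Genes known to silence or bind pericentromeric chromatin were also compared. All 35 genes of the list were tested, and at 2500 against 20000 cells 0 passed as higher and 1 as lower by edgeR, with a median log2 difference of -0.05 against 0.01 for all genes. The background was 0.419% of all tested genes called in either direction and 0.338% called lower. At an unadjusted p under 0.05, 2 were higher and 3 lower, and DESeq2 called 0 higher and 1 lower. The share of all genes at that unadjusted p is not given here. The gene that fell was Mbd2, a reader of methylated CpG sites, with 84.2, 65.4 and 68.9 CPM at 2500 cells and 137, 143 and 128 CPM at 20000 cells. These groups did not overlap, and Mbd2 differed by -0.90 on the log2 scale (SE 0.14, edgeR adjusted p = 0.0068). Without replicate 2 of 2500 cells the difference was -0.84 and missed the threshold (edgeR adjusted p = 0.057), and so did the TPM test at -0.92 (limma adjusted p = 0.14).

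The 4 most abundant genes of the list differed little between 2500 and 20000 cells. Hnrnpu, which encodes an abundant nuclear RNA-binding protein, had 1047 ± 136 and 1073 ± 33.8 CPM (SD, n = 3 each), a log2 difference of -0.03 (SE 0.08, edgeR adjusted p = 0.89). Rbbp4, a histone-binding subunit of several chromatin complexes, had 301 ± 25.3 and 312 ± 11.4 CPM (edgeR adjusted p = 0.84). The chromatin remodeller gene Atrx had 255 ± 15 and 230 ± 11.2 CPM (edgeR adjusted p = 0.3), and Morc3, of the MORC ATPase family, had 229 ± 5.66 and 242 ± 8.22 CPM (edgeR adjusted p = 0.58). Between 20000 cells and bulk liver, 26 of the 35 passed as higher and 1, Rbbp4, as lower by edgeR, against 41% and 36.8% of all genes. The median log2 difference of the list was 1.00, and Rbbp4 differed by -0.91 (SE 0.09, edgeR adjusted p = 1.0e-08).

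**Figure D5:**
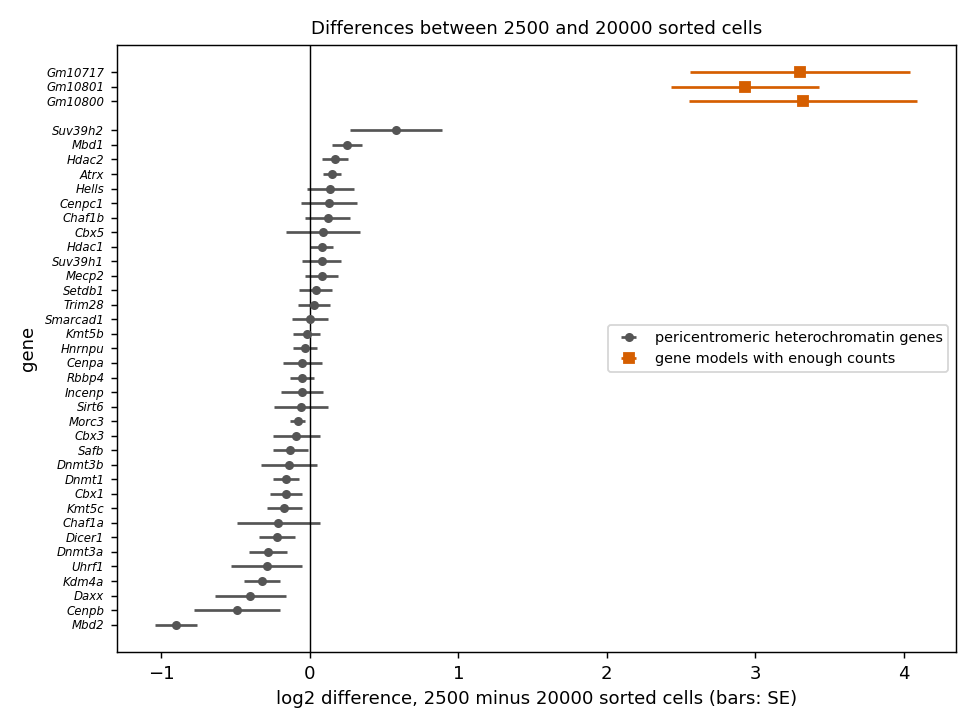
Log2 difference of 2500 minus 20000 sorted cells (x axis, bars are SE) for the 35 genes of pericentromeric heterochromatin (grey) and the 3 members that passed the filter on low counts (orange). The members lie between 2.93 and 3.32, and the listed genes between -0.90 and 0.58. The members were chosen for high counts at the fewest cells, so nothing is read from their distance to the list.

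Levels of other cell types and RNA classes are set beside these results. At 2500 and at 20000 cells the summed CPM of 9 leukocyte markers was 28319 to 31317 and 28507 to 30806, that of 9 hepatocyte markers 139 to 168 and 112 to 140, and that of 3 endothelial markers 32.5 to 52.4 and 31.3 to 39.9, with 0 markers at 0. The 3 nuclear-retained RNAs summed to 2067 to 2599 CPM at 2500 cells and 2513 to 2862 CPM at 20000 cells. The 3 erythroid markers summed to 2.67 to 42.9 CPM at 2500 cells (median 5.09) and 27.7 to 50.1 CPM at 20000 cells (median 48.5). Their lowest sum was 25.9 CPM at 5000 cells and 30.2 CPM at 10000 cells. The 2 features that resemble ribosomal RNA, Lars2 and Mir6236, summed to 1673 to 1788 CPM at 2500 cells and 4631 to 5586 CPM at 20000 cells, so they moved the opposite way to the members. Their part in the members' levels was not tested. For replicate 1 of 2500 cells the 6 sums were within the range of the other sorted libraries. Its erythroid sum, 5.09 CPM, was however below every library of 5000, 10000 and 20000 cells.

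The genes whose pattern over libraries was most like the members' were found by Pearson's r over the 12 sorted libraries. It was taken between log2(CPM + 0.5) of each gene and the mean of the 6 members, including the 3 near the limit of counting. Pearson's r does not compare the size of changes, and the ratio of 2500 to 20000 cells was 9.41 for the summed members. The highest was Prpf3, which encodes a spliceosome component, at r = 0.896, or 0.827 without replicate 1 of 2500 cells, with 50.4 ± 4.13 CPM at 2500 cells and 40 ± 1.01 CPM at 20000 cells (SD, n = 3 each). Also among the 10 highest were Cnot2 (r = 0.884, or 0.678 without that library), Miga2 (0.874, or 0.634) and Atg16l1 (0.87, or 0.779). Fam107b was at 0.868 (or 0.748), 9130023H24Rik at 0.85 (or 0.646) and Ptpn4 at 0.848 (or 0.814). Ncf1 was at 0.838 (or 0.725) and Pcyox1 at 0.83 (or 0.848). The order among them depends on that library, since Pcyox1 was above Prpf3 without it. Among models with too few counts for that ranking, Gm21738 had r = 0.966 and Gm26870 had r = 0.935 with all 12 libraries. These values are descriptions over libraries that share inputs. The 10 genes were picked as the highest among the 14795 genes that passed the filter on low counts, members left out. A high r is favoured by picking from so many genes.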

How the data were processed

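Per the labels' protocols, RNA was column-purified with DNase treatment, reverse-transcribed and amplified by SMART-seq v4 chemistry, and tagmented. Whole-number counts per gene were deposited without normalization. The deposited TPM table was made by the authors, and each column sums to 1000000. Another deposited table, of variance-stabilised values, was not used. The submitters' processing notes name the build GRCm38 and, with no role or order, DESeq2 1.34.0, FastQC 0.11.5, the counter featureCounts 1.5.1, the quantifier RSEM 1.3.0 and the aligner STAR 2.5.2b. Which tool made which table, the annotation release, and how reads with several matches and strand were treated are not given in the sources used here. Such settings bear directly on repeated sequence, because reads that match several copies may be dropped, split or assigned.

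CPM are counts over library totals. Tests across genes used edgeR 4.0.16 in R 4.3.3, by its quasi-likelihood F test with robust dispersions, TMM scaling and filterByExpr, and with Benjamini-Hochberg adjustment over all genes tested and a threshold of 0.05. The comparison with bulk liver used all 14 libraries and the comparisons of inputs the 12 sorted ones. Each SE of an edgeR difference is the absolute log2 difference divided by the square root of its F value. It is approximate, and has no meaning where both are near 0. DESeq2 1.42.0 and limma 3.58.1 were alternatives. Scripts were tested on simulated data. Transcripts of GENCODE M21 were compared with blastn 2.17.0 and by shared words of 50 bases. No genome was used, so sequences were related through transcripts.

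The text names all members, related models and neighbours with a count, listed chromatin genes that passed at 2500 against 20000 cells or were among the 4 most abundant, and the 10 genes with the most similar pattern, of which 1 is not reported here. The members and lists were chosen with earlier results of these data known. Intervals and limits cover counting error only.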

Additional observations from a re-analysis of the deposited data

How the results depend on the processing

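Gm10800, Gm10801 and Gm10717 stayed higher at 2500 than at 20000 cells under every alternative run. The members were chosen for high counts at the fewest cells in these same libraries, so this is a description and no support. Leaving out 1 library gave log2 differences of 2.36 to 3.83, 2.13 to 3.24 and 2.41 to 3.94. The lowest of each was without replicate 1 of 2500 cells. The number of genes called in that comparison was 62, and it was 397 with no filter on low counts, 272 with DESeq2, 37 with limma-voom, 5 with TPM, and 19 to 67 with 1 library left out. Of the chromatin list 1 gene was called, against 2 with no filter, 0 with TPM and 0 to 1 with 1 library left out. The number called at 20000 cells against bulk liver, 12678, was 11624 to 12800 with 1 library left out. There Gm10800 also passed with no filter (1.39, edgeR adjusted p = 2.7e-04), as 1 of 6 tested members, against 13506 of 29250 genes. Gm10717 ranged from -0.63 to 0.52 with 1 library left out. The members' share of counts at 2500, 20000 cells and in bulk was 0.0174, 0.00165 and 0.000302% of TPM; without Gm10800 it was 0.00161% at 2500 cells, 0.000203% at 20000 cells and 4.5e-05% in bulk, and with all 13 models, an alternative chosen after seeing the data, 0.000192% in bulk. With 1 library left out the shares were 0.00406 to 0.00966, 0.000602 to 0.000954 and 0.000149 to 0.000171%. The cause of these changes was not tested. No pairing by replicate number was seen: the correlation of deviations was -0.0824 to 0.0597 over 26 same-numbered pairs and -0.0838 to 0.086 over 52 differently numbered pairs. The pairs share libraries, and an animal's effect may be smaller than the differences between libraries. This check therefore cannot settle whether equal numbers mark 1 animal. With the replicate number as a block, 68 genes were called at 2500 against 20000 cells and 12563 at 20000 cells against bulk, where Gm10800 was at 1.51 (edgeR adjusted p = 0.32). Bulk levels rest on 12 and 13 counts of all members, so depth limits that comparison.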

Other observations

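Gene models with numbered Gm symbols were also counted as a class without the members. Of 1626 such models tested at 2500 against 20000 cells, 0 were called higher and 4 lower by edgeR, with 30 higher and 83 lower at an unadjusted p under 0.05, and DESeq2 called 0 higher and 5 lower. Of all 14795 genes tested, edgeR called 0.0811% higher and 0.338% lower, against 0% and 0.246% of these models. These shares are close, and nothing is read from them. The share of all genes at an unadjusted p under 0.05 is not given here, so those counts have no background. The median log2 difference of these models was -0.02, against 0.01 for all genes.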
